A study of Mus musculus with 11 samples.

Results

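Expression of 10 genes of the integrated stress response and the unfolded protein response was followed in single retinal cells from 11 mice at postnatal day 10. Atf4, Ddit3, Trib3, Asns, Chac1 and Sesn2 stand for the integrated stress response (6 genes), and Hspa5, Xbp1, Hsp90b1 and Herpud1 for the unfolded protein response (4 genes). The genes were taken by symbol, with no threshold on a measured value but with earlier results of these data known, and all 10 were among the 25311 genes of the count matrix. The mice were C57BL/6J in all groups. Controls received vehicle (PBS, n = 3 mice), and Phase I ROP mice received streptozotocin (STZ, n = 3 mice), a toxin of the insulin-producing beta cells that makes pups hyperglycemic. In a further set of littermates, all given STZ, pups and nursing dams were kept in separate cages on a defined diet rich in ω-3 LCPUFA (DHA and EPA, n = 2 mice) or in ω-6 LCPUFA (AA, n = 3 mice). Control and Phase I ROP mice were littermates of each other but not of the diet-fed mice, and the feed of their dams is not given in the sources used here. There was no diet group without STZ.

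In the integrated stress response, kinases that sense amino acid shortage, heme shortage, double-stranded RNA or unfolded protein phosphorylate the initiation factor eIF2, which slows translation in general and favors translation of the transcription factor ATF4. ATF4 then acts on genes for amino acid supply, redox balance and, with DDIT3 (CHOP), cell death. In the unfolded protein response, the sensors IRE1, PERK and ATF6 respond to unfolded protein in the endoplasmic reticulum (ER) and raise chaperones and the machinery that degrades misfolded protein. Photoreceptors make large amounts of membrane protein for their outer segments, and both pathways are known from photoreceptor degeneration. Because ATF4 is controlled largely at translation, a transcript level is not a level of the protein.

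The promoters of the members hold different sequence elements. RefSeq promoters (250 bases before to 50 bases after the start, GRCm38.p6) were found for all 10 members among 32851 promoters, and were searched on both strands. The ER stress element (CCAAT followed after 9 bases by CCACG), through which ATF6 is known to act, was held by 0.119% of all promoters and by 2 members, the chaperones Hspa5 and Hsp90b1. The composite element of ATF4 with C/EBP factors was searched as TGATGNAAN, which 3.95% of promoters and 4 members held (Asns, Chac1, Herpud1 and Trib3). The stricter TGATGCAAT (0.192% of promoters) and the UPR element TGACGTGG (0.676%) were in none of the 10 windows, and the short element CCACG, which is also part of the ER stress element, was in 7 members and in 32.8% of promoters. The lines below show the matches of the ER stress element and of TGATGNAAN. They do not separate the pathways, since Herpud1 of the unfolded protein response held TGATGNAAN and Atf4, Ddit3 and Sesn2 did not. Capitals mark the matched letters, and each line is read 5′ to 3′ on the strand of the gene. A match on the other strand therefore appears as its reverse complement.
Hspa5, chr2:34772020-34772049, plus strand: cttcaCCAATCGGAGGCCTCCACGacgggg
Hsp90b1, chr10:86705632-86705661, minus strand: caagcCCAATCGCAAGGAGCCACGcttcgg
Hsp90b1, chr10:86705527-86705556, minus strand, match on the other strand: gagtgCGTGGTGAGGCACGATTGGtgagtt
Chac1, chr2:119351038-119351067, plus strand, match on the other strand: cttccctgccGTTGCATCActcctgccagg
Herpud1, chr8:94386306-94386335, plus strand, match on the other strand: accacggcggGTTGCATCAgcccgcacccc
Asns, chr6:7693213-7693242, minus strand: cccagccacaTGATGAAACttcccgcacgc
Trib3, chr2:152344028-152344057, minus strand, match on the other strand: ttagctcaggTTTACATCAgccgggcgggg
A match describes letters in the window and is not a measured binding site.

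The libraries were made with inDrop v3, a droplet method in which each captured RNA molecule carries a unique molecular identifier (UMI). After cells with more than 300 genes were kept, 20033 of 20067 cells remained, and each mouse gave 2565568 to 6517776 UMIs. The median UMIs per cell were 1550 to 2341 in control, 1003.5 to 1190 in Phase I ROP, 1687 to 1708 with ω-3 and 1386.5 to 2215 with ω-6. Cells were assigned to rods, cones, bipolar cells, amacrine cells and Müller glia by clustering and canonical markers. With all mice pooled, every marker of these 5 classes (10 to 16 per class) had its highest level, among the 5, in its own class. The same markers had named the clusters, so this is a description and not a separate check of the names. A threshold set after the values were seen left 3.57% to 4.35% of cells per mouse unnamed in control and 0.303% to 2.18% in the other groups. Cell barcodes found in 2 or more mice numbered 1157 and took 11.721% of cells, and Scrublet marked 0.359% of cells as doublets, too few to count as a working call, so none were removed. Levels are in CPM, the UMIs of a gene divided by all UMIs of that mouse and class and multiplied by 1000000. Fold changes come from edgeR's quasi-likelihood test on the sums per mouse, scaled by the TMM method, and a gene was called when its p-value, adjusted over all genes tested in the class, was under 0.05.

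In control retinas, levels of the members differed between classes, which is given as a description because the classes were built from the same cells. Atf4 was highest in rods (268 ± 79.9 CPM, SD, n = 3 mice) and cones (209 ± 77.0), whose mice overlapped. It was lower in bipolar cells (120.3 ± 29.0), amacrine cells (105 ± 25.6) and Müller glia (96.5 ± 20.4), which overlapped each other. Asns, the enzyme that makes asparagine, had its highest level in amacrine cells (50.2 ± 11.5 CPM), which held 54.9% of the Asns UMIs of control retinas. Hsp90b1, an ER chaperone of the HSP90 family, was at 345 ± 66.8 CPM in cones and at 163 ± 23.7 CPM in Müller glia. At the low end, no control mouse had a single UMI of Trib3 in 8650167 UMIs, and Chac1 was seen in 8 UMIs. A count of 0 in that total allows a level of up to 0.347 CPM, and this limit, like the other count limits here, covers counting error only.

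**Figure D1:**
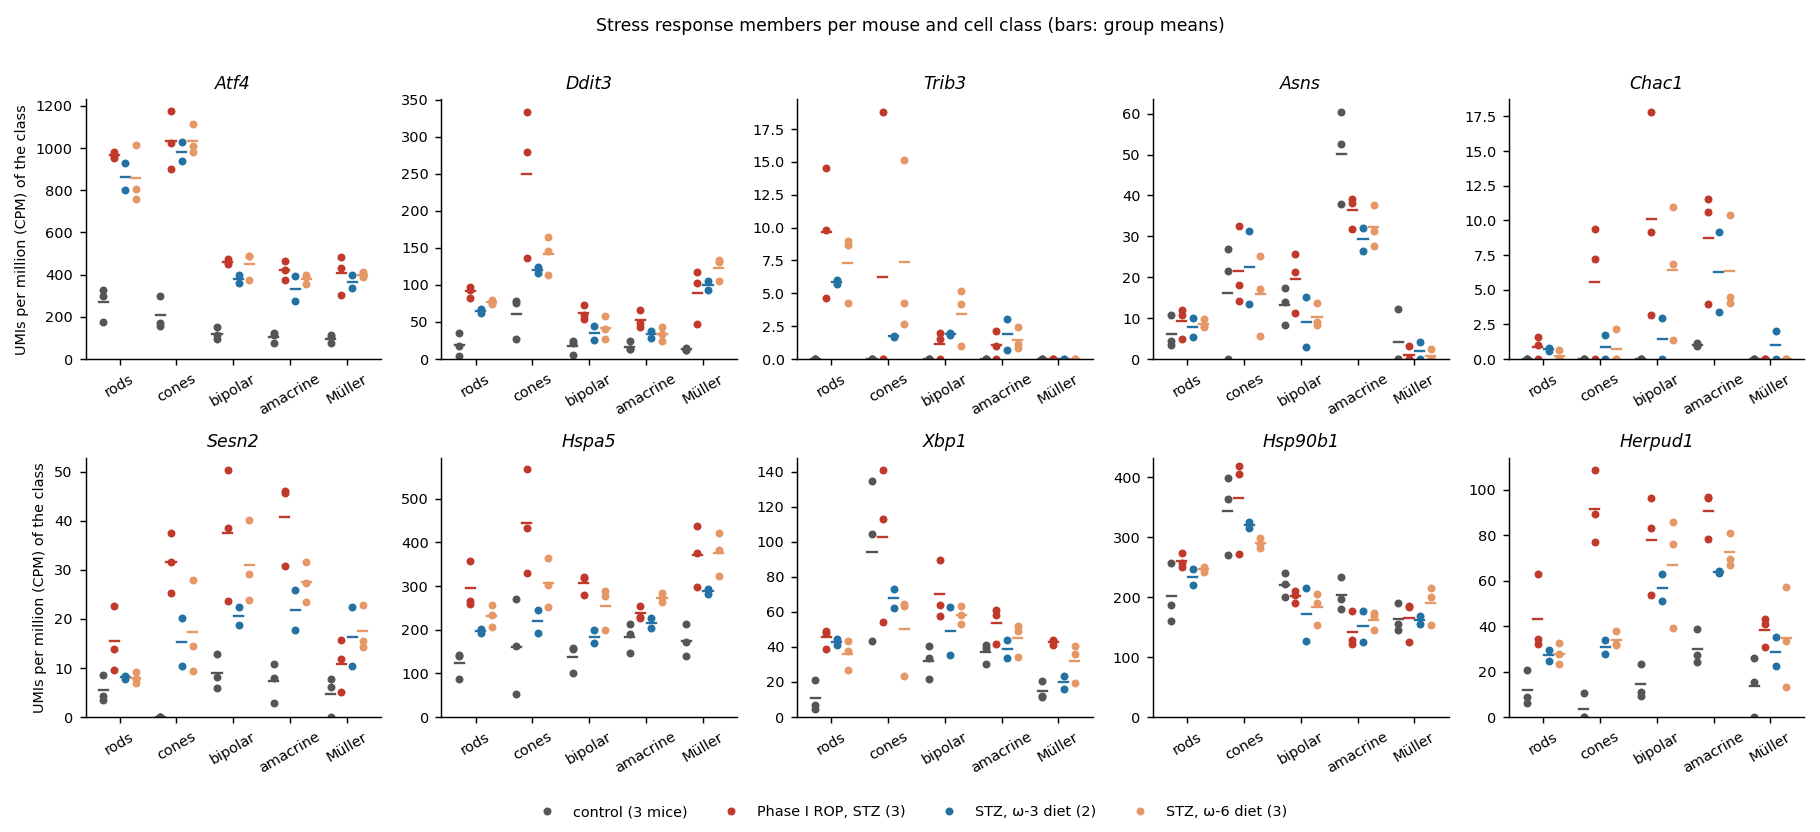
Levels of the 10 members in CPM (vertical axes, each starting at 0) by cell class (horizontal axes); each point is 1 mouse, colors are the 4 groups and short bars are group means. Atf4 in rods ran from 177 to 327 CPM in the 3 control mice and from 756.5 to 1014 CPM in the 8 mice given STZ.

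Phase I ROP was then compared with control, the question being what differs in each retinal cell class under STZ-induced hyperglycemia at postnatal day 10. Atf4 and Ddit3 rose in each of the 5 classes, Herpud1 in the 4 classes where it could be tested and Hspa5 in 4 of 5, whereas Hsp90b1 fell in amacrine and bipolar cells and Asns fell in amacrine cells. Of the 50 pairs of member and class, 33 passed the filter on low counts, 21 were called higher, 3 were called lower and 26 had an unadjusted p under 0.05. Of all tested genes, such a p was found for 3781 of 7934 in rods, 1072 of 3125 in cones and 5338 of 10019 in bipolar cells. In amacrine cells it was found for 5458 of 11315 genes and in Müller glia for 1324 of 4855. A low gene could pass the filter on its counts in Phase I ROP alone, so the counts of members describe the tested pairs and not all members. The share of all genes whose groups did not overlap in CPM was not counted for this comparison. In rods, 5 of 6 tested members were called higher, where 17.9% of all tested genes were called higher and 20.04% lower. In cones, 4 of 6 were called higher (10.9% of all genes higher and 7.9% lower). In bipolar cells, 5 of 8 were called higher and 1 lower (21.3% and 23.9% of all genes). In amacrine cells, 4 of 8 were called higher and 2 lower (18.3% and 20.5%). In Müller glia, 3 of 5 were called higher (5.81% and 5.03%). With all cells of a retina summed, 7 of 9 were called higher and 1 lower (24.7% and 23.4%). The median log2 fold change of the tested members lay between 0.71 in amacrine cells and 1.51 in cones, and that of all tested genes between 0.001 and 0.104. The sums over all cells also carry the makeup of the captured cells. Rods were 24.1% to 31.4% of the cells in control and 46.7% to 55.1% in Phase I ROP, with 1002 to 1218 and 845 to 977 UMIs per rod, and gave 9.02% to 13.9% and 24.2% to 30.9% of the UMIs. Whether the retinas or the capture differed in this cannot be told apart.

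The scaling bears on every fold change of this comparison. TMM factors were 0.853 to 0.961 in control and 0.984 to 1.195 in Phase I ROP. Without them, that is with each sum scaled by its total UMIs, an alternative chosen after the values were seen, the median of all genes moved to a log2 fold change between 0.16 in Müller glia and 0.45 in bipolar cells. The share of calls that were higher then moved from 57.9% to 82.7% in cones, from 53.6% to 72.9% in Müller glia, from 47.2% to 67.7% in rods, from 47.1% to 74.7% in bipolar and to 74.3% in amacrine cells, and from 51.4% to 70.6% over all cells. The fold changes of Atf4, Ddit3, Herpud1, Hspa5, Sesn2 and Xbp1 were larger on that scale in each class tested, and 2 of the 3 decreases, Asns in amacrine and Hsp90b1 in bipolar cells, were no longer called. CPM values also carry no TMM factor. Statements of overlap in CPM are therefore on the scale on which the median gene lay higher in Phase I ROP.

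**Figure D2:**
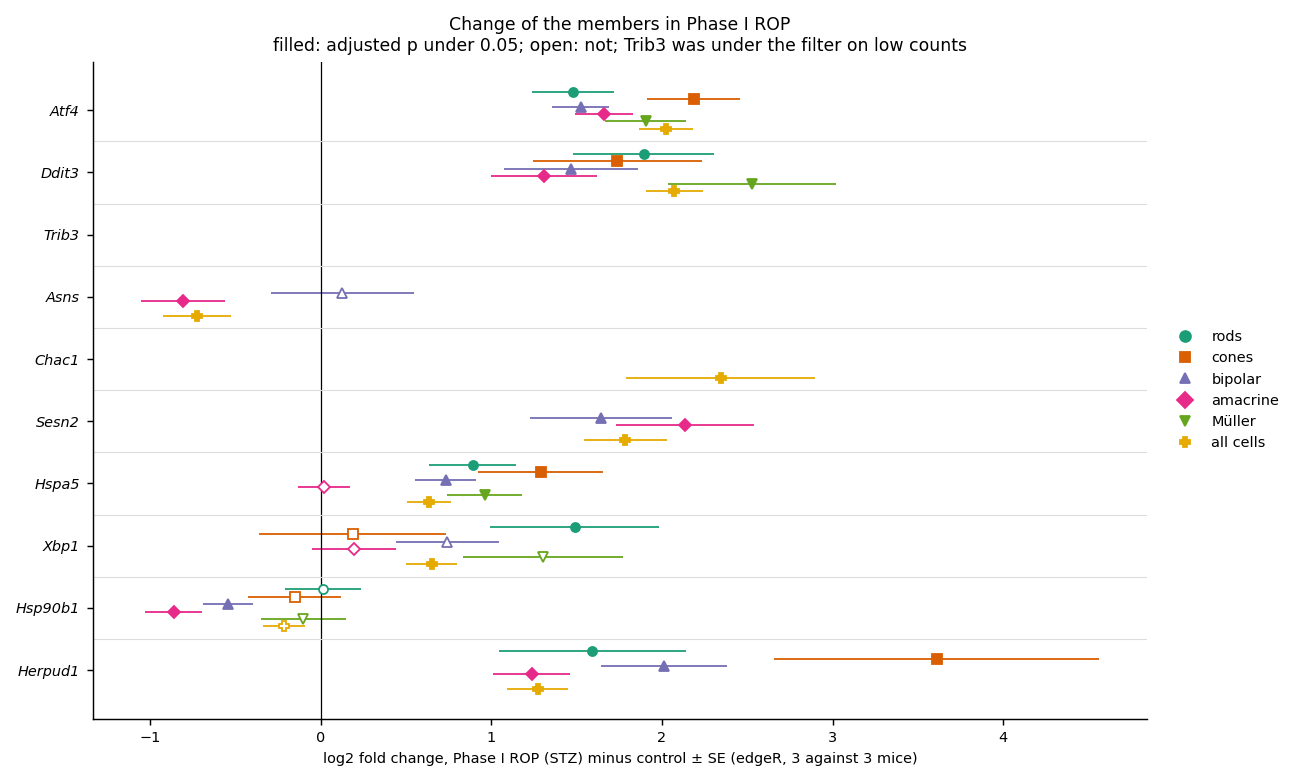
Log2 fold change of each member in Phase I ROP (3 mice) minus control (3 mice) with its standard error, on the horizontal axis, by cell class (symbols) and for all cells summed; filled symbols were called and open ones were not. Atf4 and Ddit3 lie to the right of 0 in every class, and Hsp90b1 lies at or left of 0.02 throughout; on sums scaled by total UMIs Hsp90b1 lies right of 0 in rods, cones, Müller glia and all cells.

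Atf4, the transcription factor at the center of the integrated stress response, had the clearest separation. In rods the control mice were at 327, 177 and 300 CPM and the Phase I ROP mice at 979, 962 and 953 CPM. In cones they were at 297, 156 and 173 CPM against 900.2, 1175 and 1022 CPM. All Phase I ROP mice lay above all controls, and the rod and cone values of Phase I ROP stood well apart from those of the other classes. In bipolar cells the control values were 96.0, 113 and 152 CPM and the Phase I ROP values 475, 459.5 and 451 CPM. In amacrine cells they were 116, 75.6 and 123 CPM against 375, 423 and 465 CPM. Müller glia had 112, 73.5 and 103 CPM in control and 304, 484 and 432 CPM in Phase I ROP, again without overlap. The log2 fold change was largest in cones, at 2.19 (SE 0.28, adjusted p = 1.25e-05), followed by Müller glia with 1.90 (SE 0.24, adjusted p = 0.000164) and amacrine cells with 1.66 (SE 0.17, adjusted p = 8.32e-06). Bipolar cells had 1.52 (SE 0.17, adjusted p = 8.57e-06) and rods 1.48 (SE 0.24, adjusted p = 0.000199). The Atf4 calls held in each of the 18 alternatives run per class. The alternative with only clusters led by markers of their own class used the same cells as the main test outside rods, and so repeats it there. Over all cells Atf4 rose by a log2 fold change of 2.02 (SE 0.16, adjusted p = 5.23e-06), and rods held 44.9% of its UMIs in Phase I ROP against 24.7% in control.

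Ddit3 encodes CHOP, a partner of ATF4 that is known to promote cell death under lasting stress, and it rose in the same classes. Its highest levels in Phase I ROP were in cones, at 136, 334 and 279 CPM, where the controls had 27.0, 78.1 and 75.5 CPM from 11 UMIs in all. In Müller glia, Ddit3 was at 47.1, 103 and 118 CPM in Phase I ROP and at 11.6, 12.3 and 15.5 CPM in control, the latter also from 11 UMIs in all. The groups did not overlap in these or in the remaining 3 classes. Log2 fold changes were 2.53 (SE 0.49, adjusted p = 0.00454) in Müller glia, 1.89 (SE 0.41, adjusted p = 0.00218, from 19 control UMIs) in rods, 1.74 (SE 0.50, adjusted p = 0.0177) in cones, 1.47 (SE 0.39, adjusted p = 0.00773) in bipolar cells and 1.31 (SE 0.31, adjusted p = 0.00442) in amacrine cells. The call in cones was lost, with an adjusted p of up to 0.067, without control replicate 1 or 3 or without Phase I ROP replicate 2 or 3. Ddit3 (chromosome 10, 127290774 to 127296288, GRCm38) overlaps Mars on the opposite strand, the symbol covers 2 gene identifiers in the GENCODE M21 annotation, and since the use of strand in counting is not given in the sources used here, reads of such pairs cannot be told apart.

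Sesn2, a sestrin known as an ATF4 target that restrains mTORC1, rose in the 2 classes in which it passed the filter. In amacrine cells the controls were at 10.9, 2.91 and 7.98 CPM and the Phase I ROP mice at 45.6, 46.1 and 30.8 CPM (log2 fold change 2.13, SE 0.41, adjusted p = 0.00096). In bipolar cells the controls were at 8.10, 5.86 and 12.9 CPM and the Phase I ROP mice at 38.5, 23.8 and 50.4 CPM (log2 fold change 1.64, SE 0.42, adjusted p = 0.0056). The groups did not overlap in either class. In cones no Sesn2 UMI was seen in 168167 control UMIs, against 22 UMIs in Phase I ROP, which makes the level at least 1.74-fold higher when 3 counts over the group stand for the control. This limit rests on control replicate 3, without which it is 39.8 CPM, above the 31.0 CPM of Phase I ROP, and no bound remains. In rods and Müller glia, with 5 and 4 control UMIs, Sesn2 was not tested.

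Trib3 and Chac1 were nearly absent from control retinas. Trib3, a pseudokinase that is known to restrain ATF4 and CHOP, had 0 UMIs in control and 35 UMIs in Phase I ROP, at 3.63, 5.85 and 2.29 CPM over all cells. This made it at least 10.8-fold higher over all cells and at least 2.92-fold higher in rods, which held 24 of the 35 UMIs (68.6%). Without control replicate 3, the deepest control, these bounds were 6.58-fold and 1.53-fold. It did not pass the filter and has no p-value. Chac1, an enzyme that breaks down glutathione, was at 1.11, 0.779 and 0.890 CPM in control and at 3.93, 10.1 and 4.01 CPM in Phase I ROP over all cells (log2 fold change 2.34, SE 0.55, adjusted p = 0.00464). Its UMIs in Phase I ROP lay mostly in amacrine (45.3%) and bipolar cells (32.1%), and in bipolar cells it was at least 8.67-fold higher than the limit that 0 control UMIs allow (5.46-fold without control replicate 3 and 5.7-fold without Phase I ROP replicate 2). Trib3 and Chac1 thus had their UMIs in different classes, at counts too low for a test of that difference.

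Asns moved the other way. In amacrine cells it was at 52.5, 37.8 and 60.4 CPM in control and at 38.2, 39.2 and 31.8 CPM in Phase I ROP. The groups overlapped in CPM, and on the TMM scale Asns fell by 0.81 on the log2 scale (SE 0.25, adjusted p = 0.0184), a call that was lost when scaled by total UMIs (-0.45, adjusted p = 0.148), without control replicate 3 and without Phase I ROP replicate 3. Over all cells it fell by 0.72 (SE 0.20, adjusted p = 0.0111), also not called when scaled by total UMIs (-0.46, adjusted p = 0.0808) or without control replicate 1. In bipolar cells Asns did not pass the test (log2 fold change 0.13, SE 0.42, adjusted p = 0.822), and its sign changed without control replicate 2 or Phase I ROP replicate 2. Among the 6 genes of the integrated stress response it was the 1 member with a called decrease.

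Of the unfolded protein response, Herpud1, a membrane protein of ER-associated degradation, had the largest fold changes. In bipolar cells the controls were at 23.1, 9.37 and 10.9 CPM and the Phase I ROP mice at 96.3, 83.2 and 53.5 CPM (log2 fold change 2.01, SE 0.37, adjusted p = 0.000659). In amacrine cells they were at 38.6, 24.2 and 27.4 CPM against 78.5, 96.9 and 96.4 CPM (1.24, SE 0.22, adjusted p = 0.000676). No Phase I ROP mouse fell within the control range in either class. In rods the change was 1.59 (SE 0.55, adjusted p = 0.031), from 11 control UMIs, and the call was lost in 4 alternatives: DESeq2, cells with more than 500 genes, without control replicate 3 and without Phase I ROP replicate 1. In cones, Herpud1 had 1 UMI in the 3 controls and 66 UMIs in Phase I ROP (3.61, SE 0.95, adjusted p = 0.0116), a fit that rests on that 1 control UMI and was not called without control replicate 3 (adjusted p = 0.0514). Herpud1 (chromosome 8, 94386438 to 94395377) overlaps Gm15890 on the opposite strand.

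Hspa5 encodes BiP, the main chaperone of the ER and the usual readout of the unfolded protein response. In rods the controls were at 139, 86.4 and 143 CPM and the Phase I ROP mice at 358, 259.9 and 267 CPM. In Müller glia they were at 213, 172 and 139.6 CPM against 298, 438 and 377 CPM. All Phase I ROP mice exceeded all controls in both classes. Hspa5 rose by a log2 fold change of 0.89 (SE 0.25, adjusted p = 0.0114) in rods, 1.29 (SE 0.36, adjusted p = 0.017) in cones, 0.73 (SE 0.18, adjusted p = 0.00449) in bipolar cells and 0.96 (SE 0.22, adjusted p = 0.0121) in Müller glia. In amacrine cells the mice were at 191, 214 and 146 CPM in control and at 228, 229.5 and 255 CPM in Phase I ROP, and on the TMM scale the log2 fold change was 0.02 (SE 0.15, adjusted p = 0.931), with a sign that changed in 4 alternatives. The calls in cones, Müller glia and rods were each lost without some mice: in cones without control replicate 2 or 3 or Phase I ROP replicate 3, in Müller glia without control replicate 3 or Phase I ROP replicate 2, and in rods without Phase I ROP replicate 1 and when classes were assigned by marker score.

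Xbp1, the transcription factor whose mRNA IRE1 splices, rose in rods, from 6.96, 4.32 and 21.3 CPM to 48.2, 38.7 and 49.3 CPM (log2 fold change 1.49, SE 0.49, adjusted p = 0.0262). This rested on 13 control UMIs, and the call was lost when classes were assigned by marker score and without control replicate 1, Phase I ROP replicate 1 or Phase I ROP replicate 3. Its values elsewhere were 1.3 (SE 0.47, adjusted p = 0.0909) in Müller glia, 0.74 (SE 0.30, adjusted p = 0.0568, called without control replicate 1) in bipolar cells, 0.19 (SE 0.25, adjusted p = 0.555) in amacrine cells and 0.19 (SE 0.55, adjusted p = 0.839) in cones, where its sign changed without control replicate 3 or Phase I ROP replicate 3. Gene counts do not show which part of Xbp1 mRNA was spliced.

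Hsp90b1 shares the ER stress element with Hspa5, as printed above, but its transcript did not rise in any class. In amacrine cells the controls were at 235, 197 and 180.2 CPM and the Phase I ROP mice at 122, 128 and 178 CPM, without overlap. There it fell by 0.86 on the log2 scale (SE 0.17, adjusted p = 0.00111), and it remained called when scaled by total UMIs (-0.51, adjusted p = 0.0251). In bipolar cells it was at 241, 221 and 201 CPM against 204, 190.2 and 211 CPM, which overlapped, and it fell by 0.54 (SE 0.15, adjusted p = 0.00839), a call that was lost when scaled by total UMIs (-0.12, adjusted p = 0.532). In rods, cones, Müller glia and over all cells its log2 fold change lay between -0.22 and 0.02, was not called, and changed sign under some alternatives. Hsp90b1 (chromosome 10, 86690209 to 86705509, minus strand) overlaps 1810014B01Rik on the opposite strand.

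Whether a member's change differed between the 5 classes was tested in 1 fit with the mouse as a block. Of 12415 genes, 1262 differed (10.2%), and none of the 8 members tested did by edgeR's test. Hspa5 (F = 3.55, adjusted p = 0.0881) and Hsp90b1 (F = 3.14, adjusted p = 0.125) came nearest and were the 2 members with an unadjusted p under 0.05. Atf4 (adjusted p = 0.255), Herpud1 (0.378), Xbp1 (0.444), Sesn2 (0.599), Asns (0.696) and Ddit3 (0.731) did not pass either. No other tool was run for this test, and the class in which a member was called is therefore not shown to set it apart from the other classes. Hspa5 alone passed under 3 alternatives: with no filter on low counts (adjusted p = 0.0217), without control replicate 3 (0.0358) and without Phase I ROP replicate 2 (0.0434).

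Genes that are known to respond to tissue dissociation moved with the members. The 25 genes of this list, immediate early and heat shock genes such as Fos, Jun and Hspa1a, rose in 65 and fell in 4 of 79 tested pairs of gene and class (82.3% and 5.06%, beside 14.3% of all genes higher in the same classes). Their summed level was 1800 to 2630 CPM in control rods and 5160 to 8210 CPM in Phase I ROP rods. It was 2660 to 3850 against 6780 to 7900 CPM in cones, 2900 to 3390 against 4950 to 5810 CPM in amacrine cells and 2150 to 3230 against 8190 to 11800 CPM in Müller glia. In bipolar cells the summed level overlapped, with 2580 to 3150 CPM in control and 2980 to 3180 CPM in Phase I ROP, although 9 of 12 tested genes of the list were called higher and 2 lower there. Named by their calls in the most classes were Nr4a1 (log2 fold change over all cells 5.61), Jun (3.13), Btg2 (2.99) and Dnajb1 (2.68). Preparation and treatment cannot be told apart in these 6 mice, and the part of the dissociation genes in the change of the members was not tested.

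**Figure D3:**
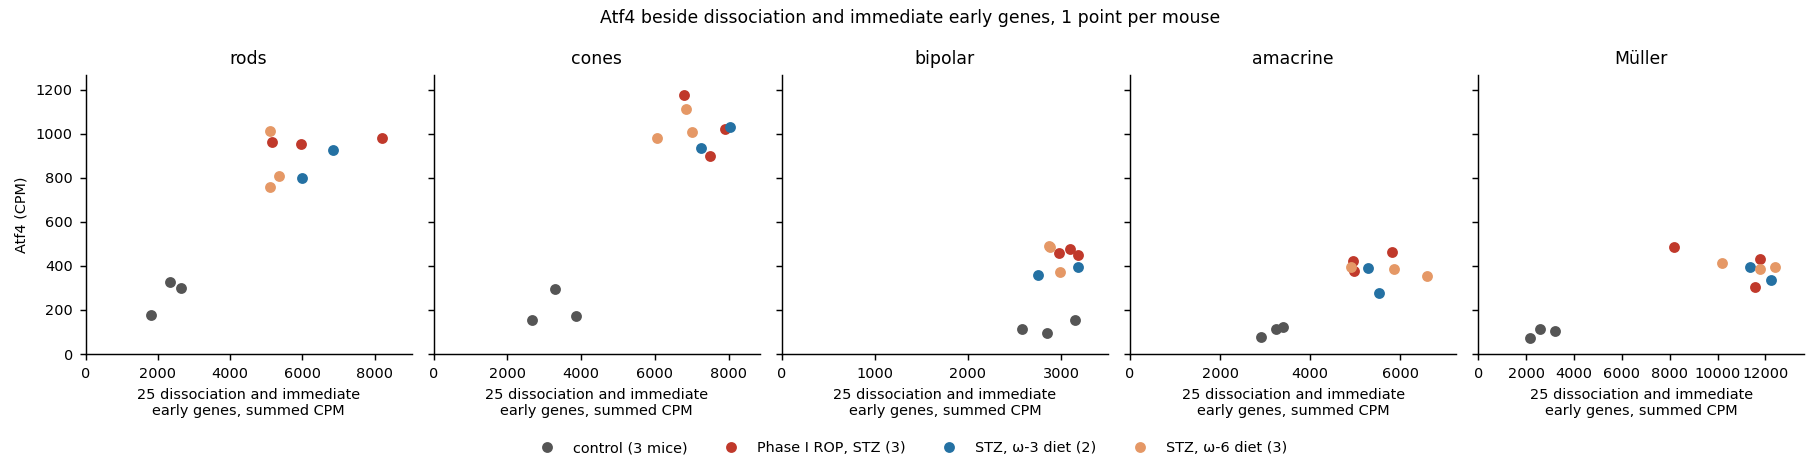
Atf4 level (CPM, vertical axis) against the summed level of 25 dissociation and immediate early genes (CPM, horizontal axes) in each class; each point is 1 mouse and colors are the 4 groups. Control mice lie apart from the 8 mice given STZ on both axes in rods, cones, amacrine cells and Müller glia, and on the Atf4 axis alone in bipolar cells.

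RNA of rods and of the retinal pigment epithelium was present in the other classes and also differed between groups. The summed rod markers (10 genes) were at 15500 to 27300 CPM in control rods and 36900 to 51900 CPM in Phase I ROP rods. In bipolar cells they were at 993 to 1720 against 1760 to 2800 CPM, in amacrine cells at 316 to 421 against 848 to 1330 CPM and in Müller glia at 270.0 to 623 against 1000 to 2860 CPM, without overlap in any of the 3 classes. As a share of their level in rods, they reached 4.31% to 6.79% in control bipolar cells and 4.77% to 5.49% in those of Phase I ROP. In amacrine cells the values were 1.16% to 2.37% and 2.16% to 2.6%, and in Müller glia 1.36% to 2.46% and 2.72% to 5.61%. In the cone class the rod markers stood at 43.4% to 70.6% of their level in rods in control, 39.4% to 44.5% in Phase I ROP and 69.1% to 85.4% on the 2 diets, while the summed cone markers (10 genes) went from 29900 to 33900 CPM in control to 18500 to 21500 CPM in Phase I ROP and 9780 to 12000 CPM on the diets. Control cones were also few, at 13 to 46 cells per mouse and 37038 to 92730 UMIs. The summed markers of the retinal pigment epithelium (9 genes), a tissue removed at dissection, were higher in control than in Phase I ROP, at 536 to 807 against 158 to 301 CPM in rods, 339 to 615 against 141 to 202 CPM in cones, 566 to 710.0 against 141 to 197 CPM in bipolar cells, 404 to 453 against 137 to 227 CPM in amacrine cells and 264 to 325 against 182 to 251 CPM in Müller glia. The part of these RNAs in the values of the members was not tested. In the rod class itself, 74.5% of control cells and 90.9% of Phase I ROP cells were in clusters led by rod markers, and the 5 calls in rods were kept when only such clusters were used. The number of calls over the classes was then 24, as in the full classes. Cones, bipolar cells, amacrine cells and Müller glia lay in clusters led by their own markers in full (100%), so their calls could not change under that rule.

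Other genes of the 2 pathways were called in both directions. These lists were drawn up with earlier results of these data known. ISR regulators, the eIF2 kinases, phosphatase subunits and eIF2B subunits, were called higher in 8 and lower in 5 of 36 tested pairs of gene and class (22.2% and 13.9%). Of all genes in the same classes, weighted by the pairs of the list, 18.1% were higher and 20.2% lower, so that the list lay near the background. Over all cells 4 of 14 rose and 3 fell (28.6% and 21.4%, beside the 24.7% and 23.4% given above): Ppp1r15a, the stress-induced subunit of the eIF2 phosphatase (3.26), Ppp1r15b (1.62), Eif2ak3, which encodes PERK (1.53), and Nck1 (0.78) were higher, whereas Eif2s1, which encodes eIF2α (-0.94), Eif2b3 (-0.69) and Eif2b5 (-0.57) were lower, all as log2 fold changes. Apart from Ppp1r15b, called in each of the 3 classes tested, these were chosen after their values were seen. When scaled by total UMIs, 5 genes of this list were called higher and 1 lower over all cells, so most of these decreases depend on the scaling. The UPR sensors and their proteases were called higher in 6 and lower in none of 21 pairs by edgeR's test (28.6%, beside 17.2% of all genes higher and 18.7% lower), and higher over all cells in 5 of 8, led by Eif2ak3 and Atf6 (1.25). Genes of ER-associated degradation (ERAD) were called higher in 15 and lower in 5 of 70 pairs (21.4% and 7.14%, beside 16.4% and 17.6% of all genes), and in 10 and 0 of 19 genes over all cells (52.6% higher). Among them Sel1l, the scaffold of the HRD1 ubiquitin ligase, rose in 4 of 5 classes (1.06 over all cells, adjusted p = 0.000165).

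Downstream of ATF4, 26 of 97 pairs were called higher and 11 lower (26.8% and 11.3%, beside 15.7% and 17.0% of all genes), with a median log2 fold change of 0.19, beside 0.001 to 0.104 for all genes. Slc38a2, an amino acid transporter, rose in all 5 classes (1.42 to 3.95). Jdp2, a Jun dimerization protein, rose in the 3 classes tested (1.55 to 4.43), and Ddit4, an inhibitor of mTORC1, and Cebpg, a C/EBP partner of ATF4, each rose in 3 of 4. Several enzymes of amino acid metabolism did not share this. Eprs, a tRNA synthetase, fell in 3 of 5 classes (-0.80 over all cells, adjusted p = 0.000245). Over all cells, and chosen after their values were seen, the serine synthesis enzymes Phgdh (-0.88, adjusted p = 0.12), Psat1 (-0.33, adjusted p = 0.184) and Psph (-0.23, adjusted p = 0.334) did not pass, and the tRNA synthetase genes Nars (-0.36, adjusted p = 0.0287), Sars (-0.40, adjusted p = 0.0429) and Tars (-0.38, adjusted p = 0.03) fell, while Wars (0.94, adjusted p = 0.00288), Iars (0.63, adjusted p = 0.0055) and Gpt2 (1.12, adjusted p = 0.0485) rose. These decreases depend on the scaling. Over all cells, 13 genes of the list were called higher and 6 lower, and 15 and 2 when scaled by total UMIs. Which decreases were kept on that scale is not given here.

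ER folding and secretion was the list in which more pairs were called lower than higher, 26 against 8 of 116 (22.4% and 6.9%, beside 16.3% of all genes lower and 15.4% higher), with a median log2 fold change of -0.17. That direction turned when scaled by total UMIs, to 11 lower and 16 higher and a median of 0.20. The increases included Dnajb9, a BiP co-chaperone that rose in each of 4 classes tested (1.16 over all cells, adjusted p = 0.000128), and Ssr3 (3 of 5 classes). The translocon genes Sec61b (4 of 5 classes, -1.07 over all cells), Sec61a1 (4 of 5, -0.67) and Sec61g (3 of 5, -0.89) fell, as did Hyou1, a nucleotide exchange factor of BiP (3 of 5, -0.80). When scaled by total UMIs these 4 kept 2, 1, 2 and 2 calls, none of them turned to a call higher. For the other lists that scaling gave 10 higher and 2 lower (ISR regulators, whose median turned from -0.16 to 0.23), 35 and 6 (downstream of ATF4), 14 and 0 (sensors) and 33 and 1 (ERAD).

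**Figure D4:**
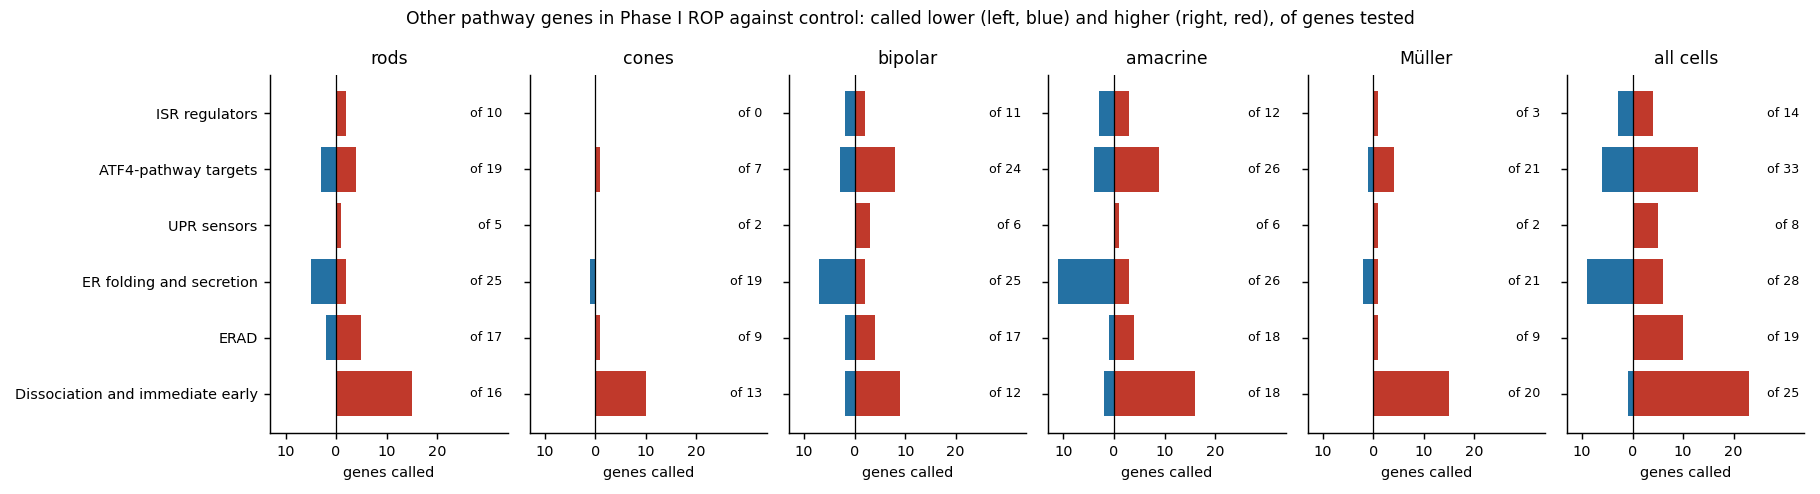
Numbers of genes called lower (to the left, blue) and higher (to the right, red) in Phase I ROP against control for 6 gene lists, by cell class and for all cells summed, with the number tested at the right. In all cells summed, ERAD has 10 genes higher and 0 lower of 19, and ER folding and secretion 6 higher and 9 lower of 28.

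The STZ-treated mice on defined diets were next set beside the Phase I ROP mice. These groups come from different litters, so that litter, housing, preparation and diet cannot be told apart, and the Phase I ROP mice are the same 3 as above. Atf4 overlapped between diet-fed and Phase I ROP mice: over all cells the Phase I ROP mice were at 602, 623 and 642 CPM, the ω-3 mice at 617.5 and 555 CPM and the ω-6 mice at 725, 545 and 593 CPM, and the log2 fold change was 0.03 (SE 0.11, adjusted p = 0.925). All 8 STZ-treated mice lay above the highest control for Atf4 and Ddit3 in each class. The same held for Herpud1 in rods, cones, bipolar and amacrine cells and for Hspa5 in rods, bipolar cells and Müller glia. In cones, 5 of 8 mice did so for Hspa5 and 1 of 8 for Xbp1. For Hsp90b1, between 0 and 2 of the 8 did so in any class. These levels are in CPM, without TMM factors, and the share of all genes in which all 8 mice lay above the highest control was not counted.

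Of the 40 pairs tested, 3 were called, all lower in the diet-fed mice and all in cones, where 3.26% of genes were called, and 13 had an unadjusted p under 0.05. In cones 4 of 8 members had such a p, beside 1620 of 9323 genes. When scaled by total UMIs, the share of all calls that were higher moved from 42.1% to 24.6% in rods and from 44.9% to 20.9% over all cells. Herpud1 in cones was at 76.9, 89.3 and 109 CPM in Phase I ROP, at 33.7 and 27.9 CPM on the ω-3 diet and at 37.8, 31.8 and 32.2 CPM on the ω-6 diet, a fall by 1.48 on the log2 scale (SE 0.28, adjusted p = 0.00348) that held in all 17 alternatives. The alternative with only clusters led by their own markers held the same cones and repeats the main test. Ddit3 in cones, at 136, 334 and 279 CPM against 114 to 164 CPM in the 5 diet-fed mice, fell by 0.90 (SE 0.22, adjusted p = 0.0208). Hspa5 in cones, at 434, 329 and 569 CPM against 194 to 365 CPM, fell by 0.76 (SE 0.18, adjusted p = 0.02). The diet-fed mice lay below all Phase I ROP mice for Herpud1 and overlapped them for Ddit3 and Hspa5. The Ddit3 call was lost without Phase I ROP replicate 2 or 3, and the Hspa5 call without Phase I ROP replicate 1 or 3 or ω-3 replicate 2. The rod and cone markers of the cone class given above moved between the same groups.

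Elsewhere no member was called by edgeR between diet-fed and Phase I ROP mice, where 0.264% of genes were called over all cells, 0.299% in rods, 0.0882% in Müller glia, 0.0361% in bipolar and 0.0221% in amacrine cells. Members with an unadjusted p under 0.05 numbered 5 of 10 over all cells, 4 of 9 in rods, 3 of 9 in amacrine cells, 2 of 8 in bipolar cells and 0 of 6 in Müller glia. Among all genes this p was found for 2552 of 18573 over all cells, 1510 of 12688 in rods and 1269 of 13553 in amacrine cells. In bipolar cells it was found for 1094 of 11071 genes and in Müller glia for 656 of 7941. Over all cells Sesn2 had the lowest adjusted p: the Phase I ROP mice were at 32.7, 26.9 and 27.5 CPM, the ω-3 mice at 16.6 and 13.2 CPM and the ω-6 mice at 19.7, 17.2 and 19.97 CPM. These did not overlap, and the log2 fold change was -0.72 (SE 0.16, adjusted p = 0.0822). Sesn2 was called with DESeq2 (adjusted p = 0.0342), among cells with more than 500 genes (0.0478) and when scaled by total UMIs (0.0389). Herpud1 was at -0.49 (SE 0.13, adjusted p = 0.123), Chac1 at -0.92 (SE 0.46, adjusted p = 0.405), Ddit3 at -0.32 (SE 0.13, adjusted p = 0.279) and Hsp90b1 at 0.06 (SE 0.11, adjusted p = 0.867). The median over the 10 members was -0.32, against 0.024 for all genes.

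Of the pathway lists, 1 gene each was called lower in cones among those downstream of ATF4 (Slc38a2, -0.90), the sensors (Ern1, which encodes IRE1, -3.16) and ERAD (Hspa13, -1.33), and none was called higher. The dissociation genes were called higher in 14 and lower in 11 of 109 pairs (12.8% and 10.1%, beside 0.324% and 0.393% of all genes in the same classes). Btg2 (4 classes), Egr1, Ier2 and Fos (2 each) were higher in the diet-fed mice, and the heat shock genes Hspa1a and Hspa1b (3 classes each), Hsp90aa1 (2) and Egr3 (1) were lower. The part of these genes in the members' values was not tested.

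The ω-6 and ω-3 diets were compared among littermates, the question being whether the retinas of STZ-treated mice differ between the 2 diets. Pups and nursing dams of each diet were in separate cages, so that cage, dam and diet cannot be told apart. No member was called in any class or over all cells by edgeR. Almost no gene was: 0.0161% of genes in rods and 0.0% in each other class and over all cells. With DESeq2 as well, 0 members were called. At an unadjusted p under 0.05 there were 5 of 40 pairs, 4 of them Hspa5 and 1 Ddit3 in rods, and 2 of 10 members over all cells (Hspa5 and Herpud1). Of all genes, 1390 of 12453 in rods, 736 of 9160 in cones and 503 of 11942 in bipolar cells had such a p. In amacrine cells it was 1298 of 13121 genes, in Müller glia 283 of 7945 and over all cells 1328 of 18821. The log2 fold change, as ω-6 minus ω-3, was above 0 in 36 of the 40 pairs, which share the same 5 mice. The median of all genes lay between 0.004 and 0.015 in the classes, and the share of all genes above 0 was not counted.

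Hspa5 had the lowest unadjusted p of the members between the diets over all cells. Over all cells the ω-3 mice were at 211 and 214 CPM and the ω-6 mice at 292, 277 and 251 CPM. Each ω-6 mouse was above both ω-3 mice, a pattern that 7.39% of all genes tested showed, and the log2 fold change was 0.44 (SE 0.13, adjusted p = 0.682). In rods the ω-3 mice were at 193 and 202 CPM and the ω-6 mice at 257, 233 and 207 CPM (0.36, SE 0.14, adjusted p = 0.407). In amacrine cells they were at 203 and 228 CPM against 284, 263 and 274 CPM (0.43, SE 0.14, adjusted p = 0.472). The values separated in cones (0.53, SE 0.20, adjusted p = 0.6) and Müller glia (0.44, SE 0.22, adjusted p = 0.994) too, and overlapped in bipolar cells (0.53, SE 0.21, adjusted p = 0.991). The share of all genes that separated in this direction was 6.92% in Müller glia, 7.68% in bipolar cells, 8.07% in rods, 9.86% in amacrine cells and 9.92% in cones. Counting all members, 7 pairs separated in this direction and 1 the other way. With 2 and 3 mice the spread of a group is poorly known, and these values were not called different.

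The remaining members were not called between the diets over all cells either. Atf4 had a log2 fold change of 0.16 (SE 0.15, adjusted p = 0.794), Ddit3 of 0.27 (SE 0.15, adjusted p = 0.684), Sesn2 of 0.43 (SE 0.20, adjusted p = 0.682) and Herpud1 of 0.38 (SE 0.17, adjusted p = 0.682). Trib3 (0.59, SE 0.43), Chac1 (0.55, SE 0.57) and Asns (0.29, SE 0.29) rested on 36 and 66, 30 and 54, and 187 and 276 UMIs on the ω-3 and ω-6 diets. Hsp90b1 (0.14, SE 0.15) and Xbp1 (0.08, SE 0.18) were near 0. None of the 6 gene lists had a called gene in this comparison.

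**Figure D5:**
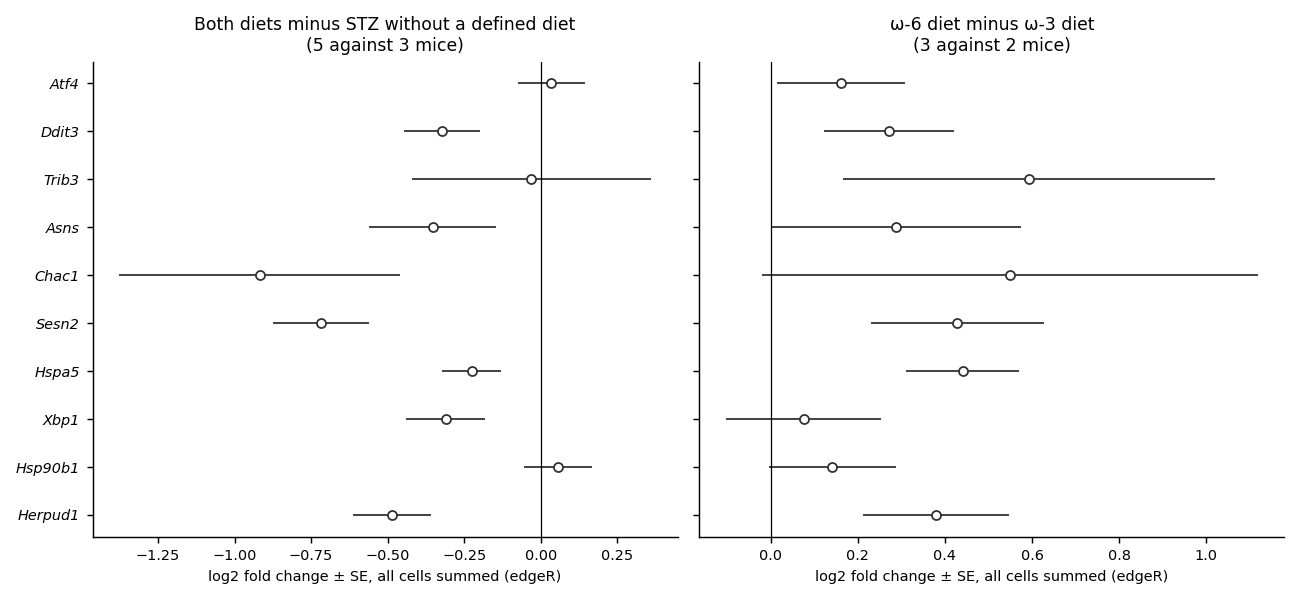
Log2 fold change of each member over all cells summed, with its standard error: the 5 diet-fed mice minus the 3 Phase I ROP mice (left) and the ω-6 diet (3 mice) minus the ω-3 diet (2 mice, right); all symbols are open because none was called. Hspa5 lies at -0.23 on the left and at 0.44 on the right, and Atf4 at 0.03 and 0.16.

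The genes whose pattern was most like that of a member were looked for over the 55 sums of mouse and class, among 5505 genes with at least 20 CPM in each class. These correlations describe the sums, which share mice, libraries, depth and the difference between control and STZ. With the class means removed, Atf4 was followed most closely by Arid1a (r = 0.941), Fosb (0.94), Jun (0.929), Frat2 (0.923) and Ulk4 (0.921). With the mean of each class and group removed as well, these fell to 0.43, 0.18, 0.382, 0.297 and 0.542. Ddit3 was most like Jun (0.86, then 0.496), Neurod1 (0.851, then 0.343), Irs2 (0.83, then 0.382), Icmt (0.83, then 0.214) and Ppm1e (0.827, then 0.575). For Hspa5 the genes were Ctnnb1 (0.827, then 0.665), Socs7 (0.816, then 0.756), Polb (0.809, then 0.798), Cited2 (0.803, then 0.598) and Atp1b2 (0.799, then 0.577), so that its likeness to these genes was reduced less by removing the group means than that of Atf4.

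Classes too small for a test gave single values, summed over the cells of a group. Atf4 was at 60.2 CPM in 50 control endothelial cells (15 UMIs) and at 385 CPM in 63 endothelial cells of the 3 groups given STZ (167 UMIs). Retinal ganglion cells had 82.1 CPM in 27 control cells and 222 CPM in 69 STZ-treated cells. Microglia had 0 Atf4 UMIs in 12 control cells and 64 UMIs (525 CPM) in 47 STZ-treated cells. These values have no spread over mice and were not compared.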

How the data were processed

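Retinas of 11 mice were profiled by inDrop v3. Per the study's methods, the authors ran bcbio-nextgen, in which umis read the barcodes, cells with few reads were dropped and Rapmap placed reads on GRCm38 transcripts. The deposited values are raw UMI counts of each gene in each cell. Cells with more than 300 genes and genes in more than 10 cells were clustered in Seurat 5.3.0 (2000 variable genes, 75 of 100 components, resolution 0.2) and named by markers. Counts were summed per mouse and class (at least 10 cells per mouse) and tested with edgeR 4.0.16 in R 4.3.3 (quasi-likelihood test, TMM, default filter, Benjamini-Hochberg). The mouse was the replicate in all tests, where the authors tested cells. Sums ran from 37038 to 2466298 UMIs per mouse and class, and small sums leave out low genes. The test was tested on simulated data. All members are named, and of the pathway lists up to 4 genes per direction called in the most classes (at least 3 in Phase I ROP, at least 1 elsewhere). The members and lists were chosen with earlier results of these data known. Coordinates are from GENCODE M21 of GRCm38. Alternatives were other scalings, DESeq2 1.42.0, filters, thinned sums, doublet removal (scanpy 1.11.5), other class definitions, all 4 groups in 1 fit, replicate numbers as a block and each mouse left out.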

Additional observations from a re-analysis of the deposited data

How the results depend on the processing

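Of the 32 values called between Phase I ROP and control, 363 of 370 recomputed under other settings and 170 of 189 recomputed without 1 mouse kept their direction and stayed past the threshold, and none reversed. The 370 include repeats of the main test. In cones, bipolar cells, amacrine cells and Müller glia, the setting with only clusters led by their own markers used the same cells and could not differ. Of the 10 that were not called, 1 gained a call: Xbp1 in bipolar cells passed when scaled by total UMIs, with no filter on low counts, without the 5% highest doublet scores, with the replicate block and without control replicate 1. The count of members called over the classes was 24, and 19 to 24 without 1 mouse; over all cells it was 8, and 8 to 9. With the replicate numbers as a replicate block it was 25 and 8. Same-numbered control and Phase I ROP mice correlated between -0.062 and 0.259 in their deviations from the group means, not above 0.1 for every pair. Pairs with different numbers ran from -0.351 to 0.167, and so few pairs do not settle whether the numbers pair the mice. Between the diets the 2 same-numbered pairs correlated between 0.127 and 0.606, and pairs with different numbers between -0.606 and 0.289. The deviations of the 2 ω-3 mice mirror each other, so each value recurs with the opposite sign and the 2 pairs are not separate evidence. They do not settle a pairing, and no label gives one. Between the diets the count was 0 in every setting, the replicate block included. Between diet-fed and Phase I ROP mice it was 3 over the classes and 1 to 3 without 1 mouse (1 without Phase I ROP replicate 3), and over all cells it went from 0 to 1 when scaled by total UMIs, with DESeq2 and among cells with more than 500 genes. The count of members that differed between classes was 0 to 1 without 1 mouse and 1 with no filter on low counts.

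The reversed values belong to members that were not called, and their cause was not tested. When scaled by total UMIs, the log2 fold change of Hsp90b1 in Phase I ROP was 0.046 over all cells, 0.177 in cones and 0.067 in Müller glia, those of Atf4 and Hsp90b1 in diet-fed mice -0.044 and -0.023 over all cells, and that of Xbp1 between the diets -0.0. With thinned sums it was 0.327 for Hsp90b1 in cones, 0.029 for Hsp90b1 in Müller glia and -0.037 for Hspa5 in amacrine cells. With classes by marker score it was 0.025 for Hsp90b1 in cones and also in Müller glia, -0.463 in rods, and -0.065 for Hspa5 in amacrine cells. Hsp90b1 was at 0.115 in cones with no filter on low counts, at -0.015 in rods among cells with more than 500 genes and at -0.001 in rods without the 5% highest doublet scores, and Trib3 in diet-fed mice at 0.189 among cells with more than 500 genes. Without 1 mouse, the values in Phase I ROP ran from -0.116 to 0.132 for Hspa5 in amacrine cells, -0.126 to 0.382 for Asns in bipolar cells, -0.245 to 0.525 for Xbp1 in cones, and for Hsp90b1 from -0.294 to 0.154 in cones, -0.203 to 0.035 in Müller glia and -0.069 to 0.287 in rods. Over all cells in diet-fed mice they ran from -0.027 to 0.061 for Atf4, -0.037 to 0.133 for Hsp90b1 and -0.327 to 0.304 for Trib3, and between the diets from -0.007 to 0.672 for Asns, -0.022 to 0.329 for Hsp90b1 and -0.114 to 0.301 for Xbp1.

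In Phase I ROP against control, depth limited Trib3, Chac1 and Sesn2, which were left untested in most classes, and the control cones, in which 1 UMI is worth 10.8 CPM or more. All mice were sampled once and at 1 age.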
